A study of Mus musculus with 4 samples.

Results

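The genes described here encode the machinery that licenses replication origins and then copies DNA at the fork. They are 45 mouse genes chosen by name, with earlier results of these data known, among 31828 genes in the table. All 45 were found and tested. By role they comprise 16 genes of origin licensing, 8 of helicase activation, 9 of the polymerases, 6 of the sliding clamp and its loader, 3 of replication protein A (RPA) and 3 of Okazaki fragment processing.

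RNA was sequenced from AML12 cells, an immortalised hepatocyte line (alpha mouse liver 12), grown as a flat layer in dishes (2D) or inside Matrigel, a basement membrane extract (3D). Each culture gave 2 libraries, and the labels do not say whether these came from separate cultures, so p-values measure only the spread between these libraries, which may be technical. All cells received 1 mM hydroxyurea, for 24 h in 2D and 36 h in 3D, so culture and treatment time cannot be told apart. The study compared the cultures to ask how growth in 3D alters gene expression and genome structure.

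Replication is prepared in G1, when the origin recognition complex (ORC), Cdc6 and Cdt1 load the Mcm2-7 helicase onto DNA in an inactive form. At the start of S phase the kinase Cdc7-Dbf4 and cyclin-dependent kinases recruit Cdc45 and GINS, which turn the loaded helicase into the moving fork. Polymerase alpha-primase then starts each strand, polymerases epsilon and delta extend the strands with the clamp PCNA, and RPA covers the exposed single strands. Hydroxyurea inhibits ribonucleotide reductase, starves forks of nucleotides and is used to hold cells around the G1/S boundary. The transcripts of many of these genes are regulated through the cell cycle by E2F factors.

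Levels are given as TPM, transcript abundances scaled to a fixed total per library, which correct for transcript length and can be compared between genes, while sequencing depth is unknown. Between 13891 and 14256 genes reached 1 TPM per library. Of 12 hepatocyte markers, 11 were tested, and 8 were higher and 3 lower (Apoe, Krt8 and Krt18) in 3D. Krt18, the most abundant of the list, was at 6286 and 6128 TPM in 2D and 3275 and 3320 TPM in 3D. All 12 summed to 9673 and 9476 TPM in 2D and to 5718 and 5796 TPM in 3D. The hepatocyte factor Hnf4a was at 56.7 and 57.6 TPM in 2D and 164 and 156 TPM in 3D, albumin (Alb) at only 0.819 and 1.20 TPM in 2D and 12.7 and 10.0 TPM in 3D, and Serpina1a was listed at or near 0. Of 5 bile duct cell markers, 4 were tested, with 2 lower (Krt7 and Krt19) and 2 higher (Sox9 and Spp1) in 3D. Krt19 was at 1728 and 1647 TPM in 2D and 1174 and 1226 TPM in 3D. Spp1 was at 166 and 138 TPM in 2D and 764 and 786 TPM in 3D, while Epcam was at or near 0. Endothelial markers summed to between 1.00 and 2.23 TPM in each library, and macrophage and leukocyte markers to between 22.0 and 27.7 TPM, most of it Cd68, with Ptprc, Adgre1 and Csf1r under 1 TPM. Fibroblast and stellate markers summed to 35.5 and 38.6 TPM in 2D and to 20.1 and 19.3 TPM in 3D, and only Des among them was tested.

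Most of the replication machinery was lower in 3D-cultured cells, with log2 fold changes from -1.79 to 0.16. Of the 45 genes, 38 fell and 0 rose at an adjusted p under 0.05 (limma on log2(TPM + 1), Benjamini-Hochberg over 14116 genes), while 27.1% of all tested genes were lower and 23.4% were higher. Among genes with a mean of at least 10 TPM the background was 30.0% lower and 25.7% higher. At an unadjusted p under 0.05 the counts were 39 lower and 1 higher, beside 4358 lower and 3775 higher of all 14116 tested genes. The median log2 fold change was -0.54 over the replication genes and -0.04 over all tested genes, whose middle 50% lay between -0.33 and 0.27. The 7 genes that did not pass were Orc1, Orc4, Orc5, Dbf4, Pold2, Pold3 and Rfc1. In bulk RNA, fewer cells that transcribe a gene and less of its RNA per cell cannot be told apart.

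**Figure D1:**
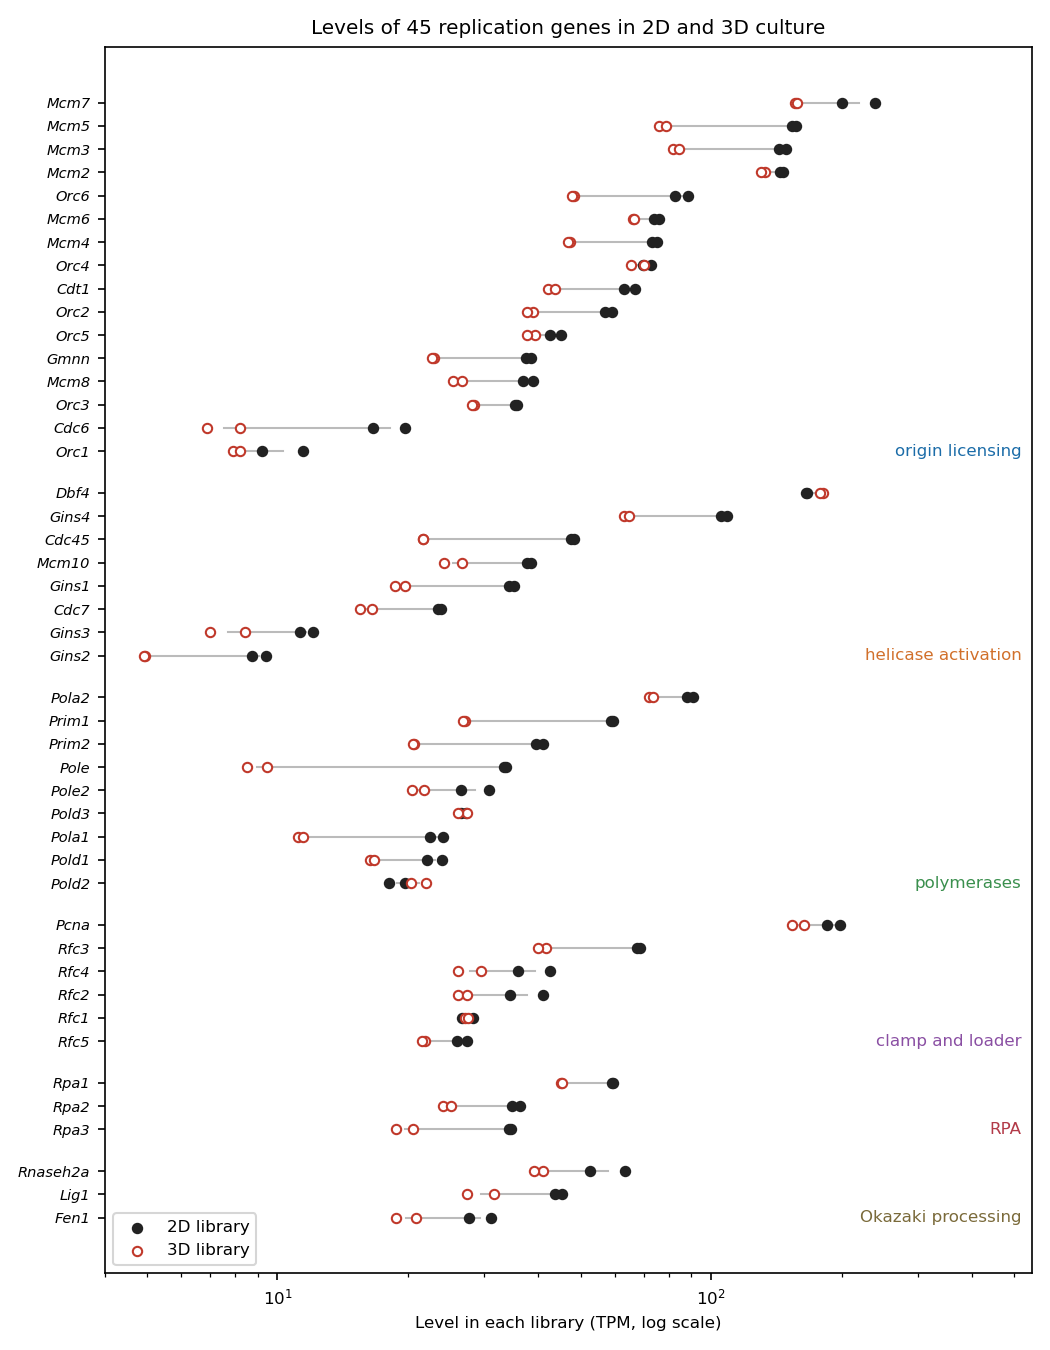
TPM (log axis) of each of the 45 replication genes in the 2 libraries of 2D-cultured cells and the 2 libraries of 3D-cultured cells, arranged by role, with 1 point per library. Points of both 3D libraries lie below both 2D libraries for 40 genes and above them for Dbf4 and Pold2.

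In 40 of the 45 genes both 3D libraries lay below both 2D libraries, an order seen in 41.6% of all tested genes. Dbf4 and Pold2 had both 3D libraries above both 2D libraries (35.9% of all tested genes), and the libraries of Orc4, Pold3 and Rfc1 overlapped between cultures. The difference between the 2 libraries of a culture had a median of 0.05 on the log2 scale over the replication genes in each culture, with the largest values at Orc1 in 2D (0.29) and Gins3 in 3D (0.24). In 42 of the 45 genes the difference between the cultures exceeded the replicate difference in both cultures, as it did in 9817 of the 14116 tested genes. Genes called lower by over 0.5 (log2) numbered 26 (14.0% of all tested genes) and those lower by over 1 numbered 4, namely Pole, Cdc6, Cdc45 and Prim1 (3.83% of all tested genes). Differences between genes in the size of their change were not themselves tested. Summed over the 45 genes, the level was 2736 and 2684 TPM in 2D and 1929 and 1944 TPM in 3D, which is 71.5% of the 2D level.

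**Figure D2:**
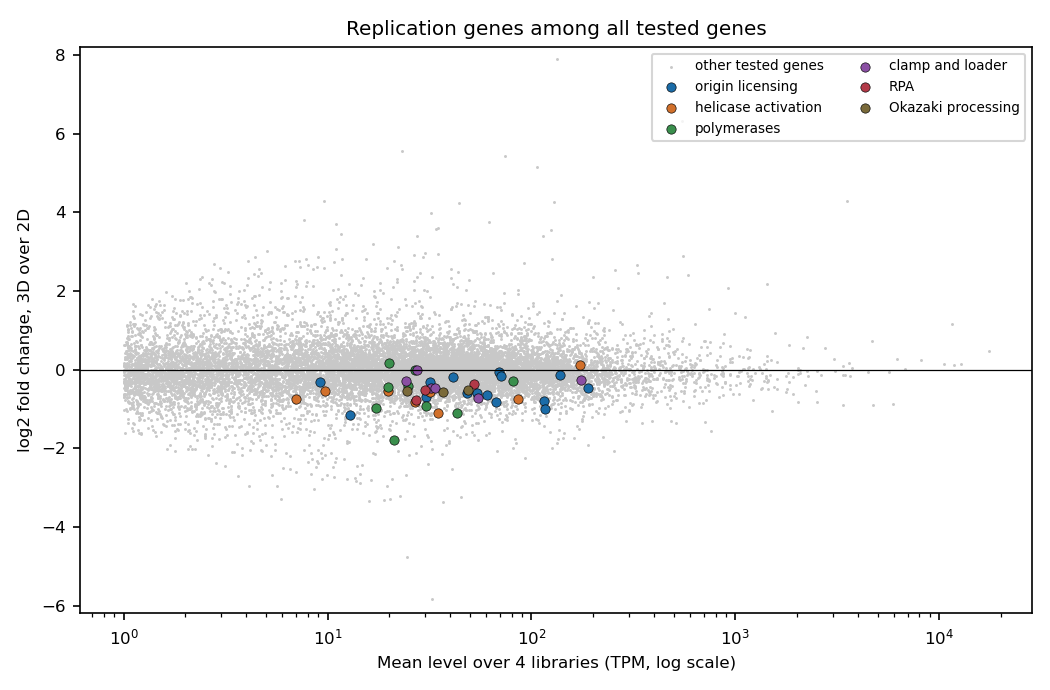
Mean TPM over the 4 libraries (horizontal axis, log scale) against the log2 fold change of 3D over 2D on the log2(TPM + 1) scale (vertical axis), for the 14116 tested genes in grey, with the 45 replication genes in colour by role. Most of the replication genes lie below the line at 0, and their median of -0.54 lies below the median of all tested genes, -0.04.

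Promoters are printed here because many of these genes are known E2F targets, for a few genes at the low and high ends of the log2 fold changes among those eligible. RefSeq promoters (GRCm38.p6, 250 bases before to 50 after the start) were found for 37 of the 45 genes, and Pole was not among them. E2F-type motifs were searched on both strands as TTTCCCGC, TTTGGCGC, TTTCGCGC and TTTGCCGC, words that can overlap each other on opposite strands. They occurred in the promoters of 16 of the 37 genes (43.2%), in 4.58% of the 9844 tested genes with a promoter and in 2.26% of all 32851 promoters of the same length. With the first 2 words alone the share was 37.8% of the 37 genes and 3.44% of the tested genes. The following promoters are written 5′ to 3′ on the gene's strand with the E2F-type matches in capitals. Of genes with 1 promoter, Cdc6, Mcm5 and Pola1 had the lowest and Mcm6 and Pold3 the highest log2 fold changes among those with a match, and Cdc45 and Dbf4 had the lowest and the highest among those without one.
Cdc6 (chr11:98907901-98908200, plus strand): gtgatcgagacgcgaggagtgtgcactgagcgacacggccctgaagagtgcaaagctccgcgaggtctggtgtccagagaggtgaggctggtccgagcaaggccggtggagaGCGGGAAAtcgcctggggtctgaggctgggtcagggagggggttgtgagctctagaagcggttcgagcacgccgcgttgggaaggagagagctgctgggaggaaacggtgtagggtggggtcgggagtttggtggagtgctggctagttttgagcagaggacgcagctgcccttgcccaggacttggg
Mcm5 (chr8:75109259-75109558, plus strand): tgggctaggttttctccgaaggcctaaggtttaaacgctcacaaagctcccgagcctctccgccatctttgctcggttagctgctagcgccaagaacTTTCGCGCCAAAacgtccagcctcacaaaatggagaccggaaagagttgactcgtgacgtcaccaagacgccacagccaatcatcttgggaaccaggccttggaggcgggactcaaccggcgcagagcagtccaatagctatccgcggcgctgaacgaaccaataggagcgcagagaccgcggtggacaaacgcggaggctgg
Pola1 (chrX:93632106-93632405, minus strand): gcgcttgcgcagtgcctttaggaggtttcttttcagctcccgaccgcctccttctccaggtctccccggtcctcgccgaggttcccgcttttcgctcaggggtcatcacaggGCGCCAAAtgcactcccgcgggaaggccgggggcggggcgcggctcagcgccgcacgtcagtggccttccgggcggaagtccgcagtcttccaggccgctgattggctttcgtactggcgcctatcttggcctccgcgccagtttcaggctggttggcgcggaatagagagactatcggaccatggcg
Mcm6 (chr1:128359656-128359955, minus strand): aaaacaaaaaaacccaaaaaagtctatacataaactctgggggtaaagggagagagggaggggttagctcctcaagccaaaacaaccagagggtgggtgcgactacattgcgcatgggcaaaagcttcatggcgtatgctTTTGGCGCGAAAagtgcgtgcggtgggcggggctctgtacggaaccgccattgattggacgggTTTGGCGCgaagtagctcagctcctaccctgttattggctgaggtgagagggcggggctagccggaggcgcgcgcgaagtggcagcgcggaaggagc
Pold3 (chr7:100121453-100121752, minus strand): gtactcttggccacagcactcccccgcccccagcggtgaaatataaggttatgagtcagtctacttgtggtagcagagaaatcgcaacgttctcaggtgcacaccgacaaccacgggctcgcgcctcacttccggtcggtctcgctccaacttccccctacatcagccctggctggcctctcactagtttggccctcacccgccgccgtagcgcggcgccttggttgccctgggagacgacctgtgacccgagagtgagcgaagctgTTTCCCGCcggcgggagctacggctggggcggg
Cdc45 (chr16:18811923-18812222, minus strand): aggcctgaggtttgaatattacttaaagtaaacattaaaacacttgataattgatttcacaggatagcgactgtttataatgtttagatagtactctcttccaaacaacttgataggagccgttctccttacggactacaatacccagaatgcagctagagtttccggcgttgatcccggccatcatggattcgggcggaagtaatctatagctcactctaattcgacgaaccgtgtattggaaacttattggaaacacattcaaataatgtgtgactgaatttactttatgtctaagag
Dbf4 (chr5:8422667-8422966, minus strand): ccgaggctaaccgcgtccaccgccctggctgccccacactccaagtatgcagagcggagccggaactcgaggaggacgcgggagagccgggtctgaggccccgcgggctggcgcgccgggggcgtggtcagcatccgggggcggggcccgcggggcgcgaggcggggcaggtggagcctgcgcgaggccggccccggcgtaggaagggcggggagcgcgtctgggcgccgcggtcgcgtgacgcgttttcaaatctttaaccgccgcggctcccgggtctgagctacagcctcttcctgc

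The Cdc6 match read GCGGGAAA and began 138 bases before the RefSeq start, the same distance as in Pola1. The printed Cdc6 window (98907901 to 98908200) lies inside the span listed for the expressed gene (98907801 to 98923940). Its match is therefore downstream of that listed start. In Mcm5 and in Mcm6 matches on opposite strands overlapped. Over all 22 matches, 15 lay within 100 bases of the start, a range that covers the last 150 of the 300 bases searched. The 16 genes with a match were Orc1, Orc3, Cdc6, Cdt1, Mcm3, Mcm5, Mcm6, Mcm7, Mcm8, Gins3, Pola1, Pold1, Pold3, Pole2, Rfc3 and Lig1. Their median log2 fold change was -0.53, against -0.48 for the 21 genes with a promoter but no match. Within 100 bases before to 50 after the start alone this order was reversed, with -0.48 for the 13 genes with a match and -0.51 for the 24 without. A match in that shorter window was found in 35.1% of the 37 genes and 2.50% of tested genes. CCAAT, the core of the NF-Y binding site, was found on either strand in 62.2% of the 37 genes and 43.1% of tested genes. TTTGAA, the core of the cell cycle homology region of G2/M genes, was found in 18.9% and 14.5%, and TATAAA in 8.11% and 8.68%. A match to a motif is a description of the sequence, and binding was not measured.

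Origin licensing genes were lower in 3D for 13 of 16 members, and 3 did not pass, with a median log2 fold change of -0.55. Cdc6, the ATPase that works with ORC to load the helicase and whose promoter is printed above, had the lowest log2 fold change of the group. Cdc6 (ENSMUSG00000017499, chromosome 11, 98907801 to 98923940, GRCm38) was at 16.6 and 19.7 TPM in 2D and 6.87 and 8.19 TPM in 3D (log2 fold change -1.16, SE 0.13, adjusted p = 0.00263). All values in 3D were below those in 2D, at 41.5% of the 2D mean. Cdt1, which brings the helicase to ORC, fell from 63.0 and 66.6 TPM to 42.0 and 43.7 TPM (log2 fold change -0.59, SE 0.06, adjusted p = 0.00182). Gmnn, which encodes geminin, the inhibitor of Cdt1, fell from 37.4 and 38.3 TPM to 22.9 and 22.8 TPM (log2 fold change -0.70, SE 0.06, adjusted p = 0.00111). The loader and its inhibitor therefore moved in the same direction, and the ratio of Cdt1 to Gmnn TPM was 1.71 ± 0.035 in 2D and 1.88 ± 0.060 in 3D (SD, n = 2).

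The 6 ORC genes split evenly between those that passed the test and those that did not. Orc6, the smallest ORC subunit, was at 88.5 and 82.7 TPM in 2D and 48.3 and 47.7 TPM in 3D (log2 fold change -0.82, SE 0.05, adjusted p = 0.000755). Orc2 was at 56.9 and 59.0 TPM in 2D and 38.8 and 37.6 TPM in 3D (-0.59, adjusted p = 0.00153). Orc3, the partner of Orc2 in the complex, was at 35.7 and 35.3 TPM in 2D and 28.3 and 28.1 TPM in 3D (-0.32, adjusted p = 0.00848), a call lost without 3D library 2 (limma adjusted p = 0.0522). Orc1, the subunit whose protein level is known to vary through the cell cycle, was at 11.4 and 9.20 TPM in 2D and 7.88 and 8.21 TPM in 3D and did not pass (-0.32, adjusted p = 0.0896), with a 95% interval of -0.64 to 0.0043. Its 2D libraries differed more than those of any other replication gene, and without the second 2D library its log2 fold change was -0.46 with a limma adjusted p of 0.0332. Orc5, at 43.8 ± 1.79 (2D mean) and 38.4 ± 1.18 TPM (3D mean, SD, n = 2), did not pass either (-0.18, adjusted p = 0.0567, 95% interval -0.34 to -0.03), and Orc4 overlapped between the cultures at 69.5 and 72.7 TPM in 2D and 65.5 and 70.1 TPM in 3D (95% interval -0.22 to 0.08). Summed over the complex, the ORC transcripts were at 307 and 301 TPM in 2D and 228 and 229 TPM in 3D.

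All 6 Mcm2-7 genes, which encode the subunits of the replicative helicase, passed the test. Mcm5 (ENSMUSG00000005410, chromosome 8, 75109569 to 75128439) was at 157 and 153 TPM in 2D and 75.8 and 78.8 TPM in 3D (log2 fold change -0.996, SE 0.04, adjusted p = 0.000368, 95% interval -1.11 to -0.88), or 49.8% of the 2D level. Mcm3 was at 149 and 143 TPM in 2D and 81.7 and 84.4 TPM in 3D (log2 fold change -0.81, SE 0.05, adjusted p = 0.000541). Mcm4 was at 73.0 and 75.0 TPM in 2D and 47.4 and 46.9 TPM in 3D (-0.64, adjusted p = 0.000935). These 3 subunits had groups that stood well apart, with replicates that differed far less than the cultures did. Mcm7, the most abundant subunit, was at 239 and 200.3 TPM in 2D and 156 and 158 TPM in 3D (-0.48, adjusted p = 0.0127), with a wide gap between its 2D libraries. Mcm6 was at 73.8 and 75.7 TPM in 2D and 65.9 and 66.6 TPM in 3D (-0.17, adjusted p = 0.0321, 95% interval -0.29 to -0.05). Mcm2 was at 145 and 146 TPM in 2D and 133 and 131 TPM in 3D (-0.14, adjusted p = 0.0364, 95% interval -0.24 to -0.04). With no filter on low values neither Mcm2 nor Mcm6 passed (limma adjusted p = 0.0822 and 0.0757), and both calls were lost without any 1 of the 4 libraries (0.068 to 0.186 for Mcm2 and 0.0576 to 0.144 for Mcm6). The call of Mcm7 was lost without either 3D library (0.0637 and 0.06). Mcm8, a relative of these genes that acts in recombination at damaged forks and not in the Mcm2-7 ring, was at 36.8 and 38.8 TPM in 2D and 25.4 and 26.6 TPM in 3D (-0.52, adjusted p = 0.0033).

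The subunits of the helicase ring stood in a different order in the cultures. In 2D the Mcm2 level was 0.94 ± 0.023 times that of Mcm5, and in 3D it was 1.70 ± 0.067 times that of Mcm5 (SD, n = 2, a pair chosen after its values were seen). Of the summed TPM of the ring, Mcm2 made up 17.9% in 2D and 23.4% in 3D, and Mcm5 made up 19.1% and 13.7%. By mean TPM Mcm7 was the highest and Mcm4 the lowest subunit in both cultures, 2.97 times apart in 2D and 3.33 times apart in 3D. In 2D the libraries of Mcm4 overlapped those of Mcm6. The ring as a whole was at 836 and 794 TPM in 2D and 560.0 and 565 TPM in 3D, or 69.0% of the 2D level.

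Of the 8 helicase activation genes, 7 fell and 1 did not pass, with a median log2 fold change of -0.65. Cdc45, the factor that joins Mcm2-7 and GINS into the active helicase (ENSMUSG00000000028, chromosome 16, 18780447 to 18811987), was at 47.5 and 48.2 TPM in 2D and 21.6 and 21.6 TPM in 3D (log2 fold change -1.11, SE 0.05, adjusted p = 0.000426). The promoter of Cdc45 printed above holds no E2F-type match. The 4 GINS subunits all fell, with Gins1 at 34.2 and 35.1 TPM in 2D and 18.6 and 19.7 TPM in 3D (-0.82, adjusted p = 0.000999). Gins4 was the most abundant, at 109 and 105 TPM in 2D and 63.1 and 64.5 TPM in 3D (-0.74, adjusted p = 0.000653). Gins2 was at 8.72 and 9.41 TPM in 2D and 4.95 and 4.92 TPM in 3D (-0.76, adjusted p = 0.00303). Gins2, the rarest subunit, and Gins4 thus had overlapping 95% intervals (-0.99 to -0.53 and -0.86 to -0.62). Gins3 was at 12.1 and 11.3 TPM in 2D and 8.44 and 6.97 TPM in 3D (-0.54, adjusted p = 0.0166), with the largest gap between 3D libraries of any replication gene. Without 2D library 1 or 3D library 2 its call was lost (limma adjusted p = 0.0665 and 0.0612). The summed GINS level was 164 and 161 TPM in 2D and 95.1 and 96.1 TPM in 3D, or 58.8% of the 2D level. Mcm10, which helps the activated helicase to start moving, was at 37.6 and 38.5 TPM in 2D and 26.7 and 24.2 TPM in 3D (-0.56, adjusted p = 0.00373).

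The kinase that triggers the loaded helicase consists of the catalytic subunit Cdc7 and the activating subunit Dbf4, and of these Cdc7 passed the test. Cdc7 was at 23.4 and 23.9 TPM in 2D and 15.5 and 16.5 TPM in 3D (log2 fold change -0.54, SE 0.07, adjusted p = 0.00389). Dbf4 (ENSMUSG00000002297, chromosome 5, 8396973 to 8422716) was at 165 and 167 TPM in 2D and 181 and 179 TPM in 3D, and both 3D libraries lay above both 2D libraries. Dbf4 did not pass the test (log2 fold change 0.11, SE 0.04, adjusted p = 0.0558), with an unadjusted 95% interval of 0.02 to 0.21. Its adjusted p was 0.0497 after centring each library on its median, 0.0275 after quantile normalization, 0.0324 after rescaling without the highest genes and 0.0184 after a correction for GC content and length, so the call depended on how the libraries were scaled. The ratio of Dbf4 to Cdc7 TPM was 7.02 ± 0.051 in 2D and 11.2 ± 0.61 in 3D (SD, n = 2).

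**Figure D3:**
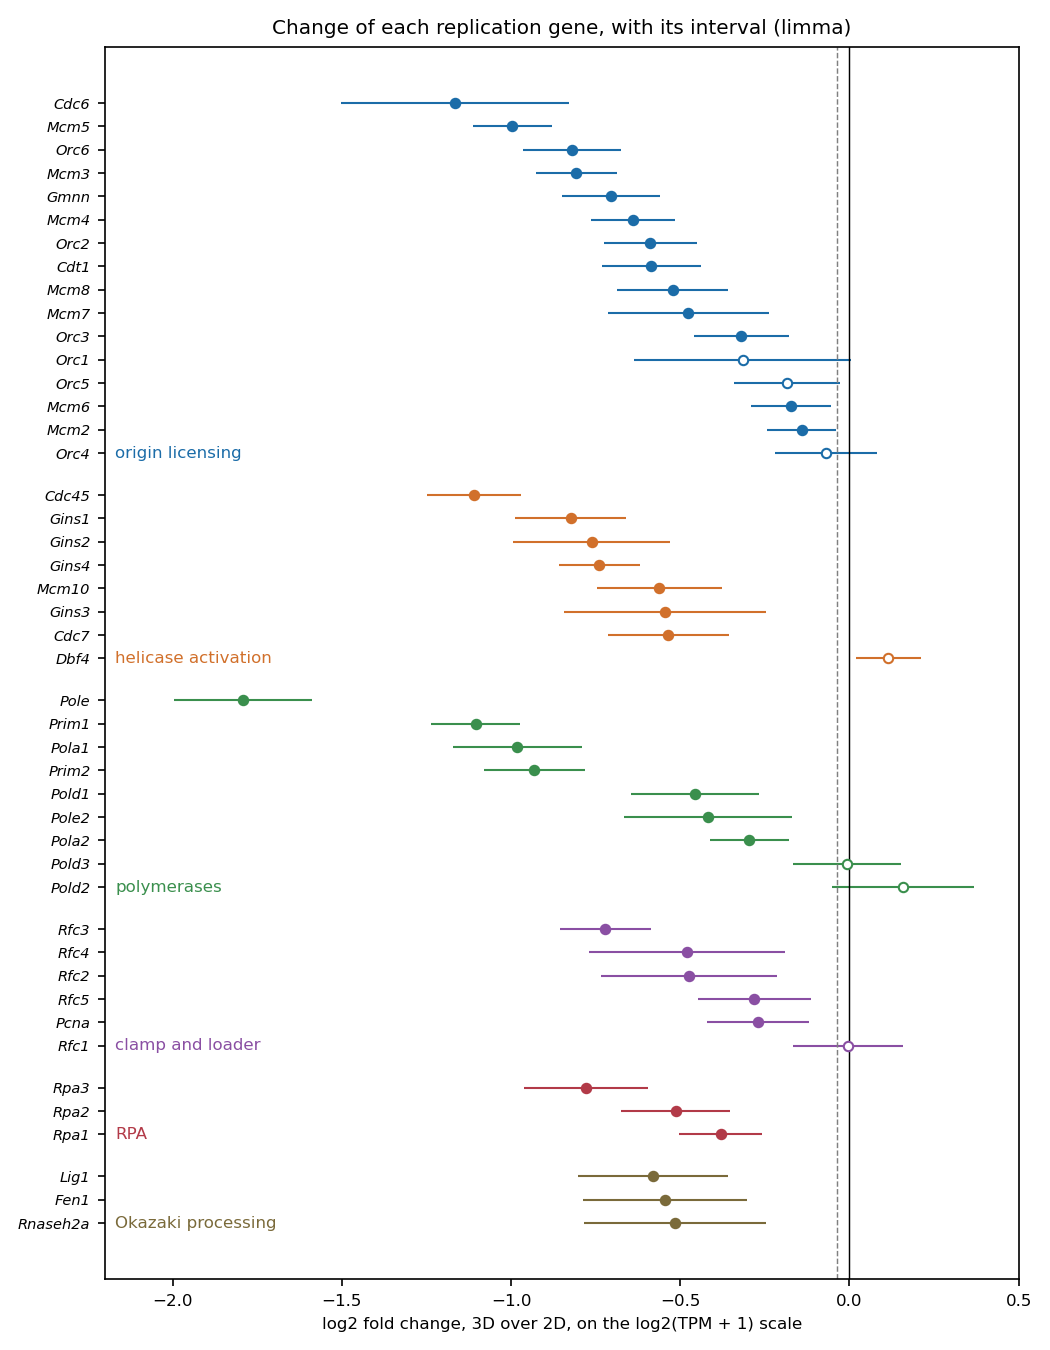
Log2 fold change of 3D over 2D on the log2(TPM + 1) scale for each of the 45 replication genes, with unadjusted 95% intervals from limma, grouped by role. Filled points passed an adjusted p of 0.05, open points are the 7 genes that did not, and the dashed line is the median of all tested genes, -0.04.

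Of the 9 polymerase genes, 7 fell and 2 did not pass, with a median log2 fold change of -0.46. Pole, the catalytic subunit of the leading strand polymerase epsilon, had the lowest log2 fold change of all 45 genes. Pole (ENSMUSG00000007080, chromosome 5, 110286306 to 110337474) was at 33.7 and 33.2 TPM in 2D and 9.44 and 8.50 TPM in 3D (log2 fold change -1.79, SE 0.08, adjusted p = 0.000344), or 26.8% of the 2D level. That placed it 106 from the lowest of the 14116 tested genes. Pole2, the second subunit of the enzyme, was at 26.5 and 30.8 TPM in 2D and 21.8 and 20.4 TPM in 3D (log2 fold change -0.42, SE 0.09, adjusted p = 0.0207). The order of these subunits was therefore inverted, with a Pole to Pole2 ratio of 1.18 ± 0.14 in 2D and 0.42 ± 0.012 in 3D (SD, n = 2). The call of Pole2 was lost with no filter on low values (limma adjusted p = 0.0511) and without 2D library 2 or either 3D library (0.0516 to 0.0918).

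The 4 genes of polymerase alpha-primase, which lays the RNA and DNA primers on both strands, all fell. Prim1, the catalytic primase subunit (ENSMUSG00000025395, chromosome 10, 128015168 to 128030037), was at 58.7 and 59.4 TPM in 2D and 27.0 and 26.8 TPM in 3D (log2 fold change -1.10, SE 0.05, adjusted p = 0.000385). Prim2, its partner, was at 39.4 and 40.9 TPM in 2D and 20.6 and 20.6 TPM in 3D (log2 fold change -0.93, SE 0.06, adjusted p = 0.000639). Pola1, the polymerase subunit, was at 22.5 and 24.1 TPM in 2D and 11.1 and 11.5 TPM in 3D (log2 fold change -0.98, SE 0.07, adjusted p = 0.000938). These 3 subunits fell to between 45.6% and 51.2% of the 2D level. Pola2, the regulatory subunit, was at 88.1 and 90.8 TPM in 2D and 72.0 and 73.3 TPM in 3D (log2 fold change -0.30, SE 0.04, adjusted p = 0.0064), and its 95% interval of -0.41 to -0.18 did not overlap those of the other subunits. Its level was 3.84 ± 0.11 times that of Pola1 in 2D and 6.43 ± 0.049 times in 3D (SD, n = 2, a pair not set in advance). Its share of the summed TPM of the complex was 42.2% in 2D and 55.3% in 3D.

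Of the polymerase delta genes, which encode the enzyme that extends the lagging strand, 1 of 3 fell. Pold1, the catalytic subunit, was at 22.1 and 24.0 TPM in 2D and 16.3 and 16.7 TPM in 3D (log2 fold change -0.46, SE 0.07, adjusted p = 0.00722). The accessory subunits Pold2 and Pold3 did not pass. Pold2 was at 19.7 and 18.1 TPM in 2D and 20.4 and 22.0 TPM in 3D (0.16, limma adjusted p = 0.165, 95% interval -0.05 to 0.37). Pold3 was at 27.2 and 26.5 TPM in 2D and 27.4 and 26.0 TPM in 3D (-0.01, limma adjusted p = 0.93, 95% interval -0.17 to 0.15). Pold4, a further accessory subunit, was lower (-0.20, limma adjusted p = 0.0122) and is described with the other pathway genes below. The interval of Pold3 leaves room for a change of up to about 0.17 on the log2 scale in either direction. Summed over Pold1, Pold2 and Pold3 the level was 69.0 and 68.6 TPM in 2D and 64.0 and 64.7 TPM in 3D. That is 93.6% of the 2D level. The sum was at 62.0% for polymerase alpha-primase and at 48.5% for Pole and Pole2 of polymerase epsilon. The other polymerase epsilon subunits, Pole3 and Pole4, were left out of that sum and are named after their values were seen. Their means in 3D were 68.6% and 81.6% of those in 2D.

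**Figure D4:**
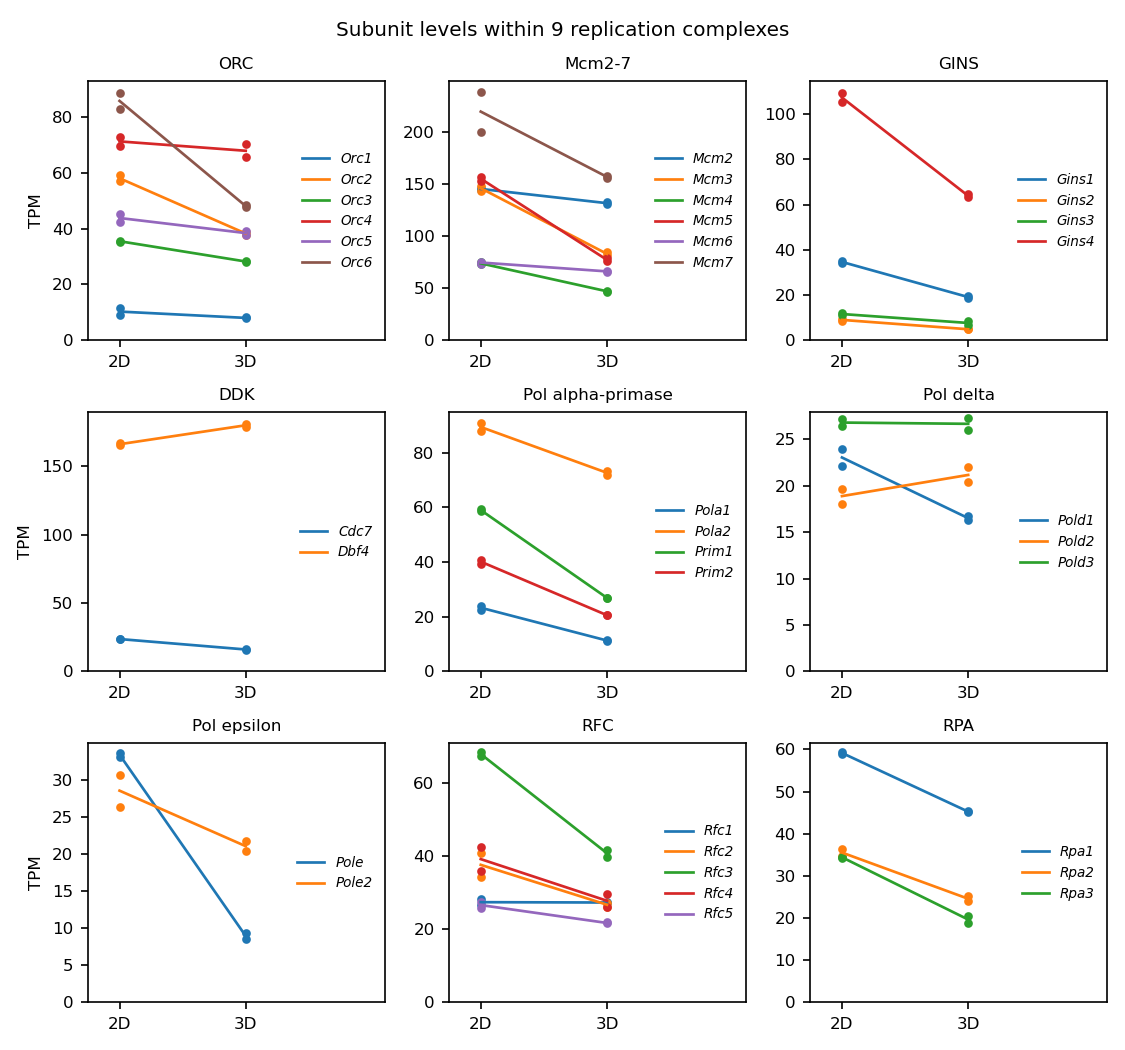
TPM of each subunit in 9 replication complexes (DDK is the Cdc7-Dbf4 kinase), with 1 point per library and a line joining the means of the 2 cultures. Lines cross where the order of subunits differs, as for Pole and Pole2, whose ratio was 1.18 in 2D and 0.42 in 3D.

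Of the 6 genes for the clamp and its loader, 5 fell and Rfc1 did not pass, with a median log2 fold change of -0.38. Pcna, the sliding clamp that tethers polymerases to DNA, was at 198 and 185 TPM in 2D and 153 and 164 TPM in 3D (log2 fold change -0.27, SE 0.06, adjusted p = 0.0171), a small decrease in an abundant transcript. Replication factor C (RFC) opens the clamp and places it on DNA. Its subunits Rfc2 to Rfc5 are shared with other loaders, and Rfc1 is particular to the complex that loads PCNA at the fork. Rfc3 was at 68.5 and 67.4 TPM in 2D and 41.7 and 39.9 TPM in 3D (log2 fold change -0.72, SE 0.05, adjusted p = 0.000865). Rfc2, Rfc4 and Rfc5 were lower too (-0.47, adjusted p = 0.0168, -0.48, adjusted p = 0.0222 and -0.28, adjusted p = 0.0206), with overlapping 95% intervals (-0.73 to -0.21, -0.77 to -0.19 and -0.45 to -0.12). With no filter on low values the calls of Rfc4 and Rfc5 were lost (limma adjusted p = 0.0546 and 0.0505). Without 1 library, calls were lost for Pcna (without 2D library 1 or 3D library 1, 0.0534 and 0.0894), Rfc2 (without either 3D library, 0.0759 and 0.0575), Rfc4 (without 2D library 1 or 3D library 1, 0.0631 and 0.0907) and Rfc5 (without 2D library 2 or either 3D library, 0.0679 to 0.0954). Rfc1 overlapped between the cultures at 26.6 and 28.2 TPM in 2D and 27.1 and 27.6 TPM in 3D (-0.0041, adjusted p = 0.96, 95% interval -0.17 to 0.16). The share of Rfc1 in the summed RFC level was 13.8% in 2D and 18.9% in 3D, while that of Rfc3 was 34.2% and 28.3%.

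All 3 genes of RPA, the trimer that binds single-stranded DNA behind the helicase, fell. Rpa3, the smallest subunit, was at 34.6 and 34.2 TPM in 2D and 18.8 and 20.6 TPM in 3D (log2 fold change -0.78, SE 0.07, adjusted p = 0.00156). Rpa2, the subunit phosphorylated when forks stall, was at 36.3 and 34.7 TPM in 2D and 24.0 and 25.1 TPM in 3D (log2 fold change -0.51, SE 0.06, adjusted p = 0.00325). Rpa1, which makes most of the contacts with DNA, was at 58.9 and 59.4 TPM in 2D and 45.1 and 45.4 TPM in 3D (log2 fold change -0.38, SE 0.05, adjusted p = 0.00354). The 95% intervals of Rpa1 and Rpa3 did not overlap (-0.50 to -0.26 and -0.96 to -0.60), and Rpa1 made up 45.8% of the summed level in 2D and 50.6% in 3D.

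The genes that finish Okazaki fragments all fell, with a median log2 fold change of -0.54. Lig1, the ligase that joins the fragments, was at 43.7 and 45.3 TPM in 2D and 31.6 and 27.4 TPM in 3D (log2 fold change -0.58, SE 0.08, adjusted p = 0.00557). Fen1, the nuclease that trims displaced flaps, was at 31.1 and 27.7 TPM in 2D and 20.9 and 18.7 TPM in 3D (log2 fold change -0.54, SE 0.09, adjusted p = 0.009). Rnaseh2a, the catalytic subunit of the ribonuclease that removes RNA from DNA, was at 63.3 and 52.5 TPM in 2D and 41.0 and 39.0 TPM in 3D (log2 fold change -0.52, SE 0.10, adjusted p = 0.0143). The 95% intervals of these 3 genes overlapped one another. The call of Rnaseh2a was lost without either 3D library (limma adjusted p = 0.0526 and 0.0686).

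The order of levels was described over the 45 genes by TPM. In 2D the highest were Mcm7, Pcna, Dbf4, Mcm5, Mcm3 and Mcm2, and the libraries of Mcm3 and Mcm2 overlapped. In 3D, Dbf4 came first and Pcna, Mcm7 and Mcm2 followed, with the libraries of Pcna and Mcm7 overlapping. Gins2 was the lowest of the 45 in both cultures. Over the 45 genes the log2 fold change had Spearman's rho of 0.13 with mean TPM, 0.07 with transcript length and -0.05 with GC content, given as a description over genes of the same 4 libraries.

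The other genes of the pathway were taken in 4 lists of factors that act beside the 45. Of 56 tested genes 40 were lower, 3 higher and 13 not called, with a median log2 fold change of -0.39. The background for each list was 27.1% lower and 23.4% higher among all tested genes. Of 19 firing and fork factors, 13 fell, 0 rose and 6 did not pass (14 and 1 at an unadjusted p under 0.05, limma). Topbp1, a scaffold needed for origin firing, was at 106 and 111 TPM in 2D and 69.1 and 64.7 TPM in 3D (-0.68, adjusted p = 0.00122), and Ccna2, the S phase cyclin A, was at 86.4 and 87.6 TPM in 2D and 49.4 and 49.0 TPM in 3D (-0.81, adjusted p = 0.000521). Ddb1, the adaptor of the ubiquitin ligase that removes Cdt1 in S phase, fell as well (-0.32, adjusted p = 0.00306), while Cul4a, the cullin of the same ligase, did not pass (0.23, adjusted p = 0.0773). Of 14 further polymerase, loader and Okazaki factors 13 fell. They include the topoisomerase Top2a (-0.63, adjusted p = 0.000494), Poldip3 (-0.44, adjusted p = 0.00157) and Pold4, the smallest subunit of polymerase delta (-0.20, adjusted p = 0.0122). Chtf8, a subunit of an alternative clamp loader, was at 187 and 190.1 TPM in 2D and 210.3 and 212 TPM in 3D (0.16, adjusted p = 0.0205). The call of Chtf8 was lost, among other settings, without 2D library 1, without either 3D library, with a constant prior variance and after correction for GC content and length, with limma adjusted p between 0.0518 and 0.127. The call of Pold4 was lost without either 3D library (0.0788 and 0.0798), and Cul4a passed without 3D library 2 and after the correction (0.0324 and 0.0499).

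Of 10 genes for chromatin assembly behind the fork, 9 fell and 1 did not pass (27.1% of all tested genes were lower). Nasp, a histone chaperone, was at 79.4 and 70.5 TPM in 2D and 44.7 and 46.5 TPM in 3D (-0.70, adjusted p = 0.00236). Dnmt1, which copies DNA methylation to the new strand, was at 63.3 and 70.4 TPM in 2D and 47.0 and 45.3 TPM in 3D (-0.52, adjusted p = 0.00446). Ssrp1, a subunit of the chaperone FACT, and Hat1, which acetylates new histone H4, fell as well (-0.40, adjusted p = 0.00205 and -0.33, adjusted p = 0.00423).

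The 13 genes of E2F, DP and pocket proteins control transcription of many replication genes. Of these 13, 5 were lower (38.5%), 2 higher and 6 not called, with a median of -0.08. Over all tested genes 27.1% were lower and 23.4% higher, with a median of -0.04. E2f1, an activating E2F, overlapped between cultures at 19.7 and 21.7 TPM in 2D and 19.9 and 21.1 TPM in 3D (-0.01, adjusted p = 0.899, 95% interval -0.22 to 0.19). E2f2 and E2f3, the other activators, did not pass either (0.01, adjusted p = 0.955 and 0.13, adjusted p = 0.193). E2f7, a repressor whose own transcript rises in S phase, was at 43.7 and 49.2 TPM in 2D and 18.9 and 18.9 TPM in 3D (log2 fold change -1.25, SE 0.08, adjusted p = 0.000652), and the related E2f8 was lower too (-0.39, adjusted p = 0.0281). The repressor E2f4 was higher, at 90.8 and 95.0 TPM in 2D and 125 and 121 TPM in 3D (log2 fold change 0.40, SE 0.05, adjusted p = 0.00309). Rbl2, the p130 pocket protein that pairs with E2f4 in resting cells, was at 15.1 and 18.1 TPM in 2D and 24.9 and 23.3 TPM in 3D (0.52, adjusted p = 0.0162). Its call was lost without either 3D library (limma adjusted p = 0.078 and 0.0529). Rbl1 and Rb1, the other pocket proteins, were lower (-0.45, adjusted p = 0.0064 and -0.31, adjusted p = 0.012), as was the partner Tfdp1 (-0.28, adjusted p = 0.00784). The call of E2f8 was lost without either 2D library, without 3D library 2 and with no filter (0.0659 to 0.0992), that of Tfdp1 without 3D library 1 (0.0584) and that of Rb1 without either 3D library (0.06 and 0.0621). Tfdp2, E2f5 and E2f6 did not pass (0.17, -0.08 and -0.20 on the log2 scale).

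**Figure D5:**
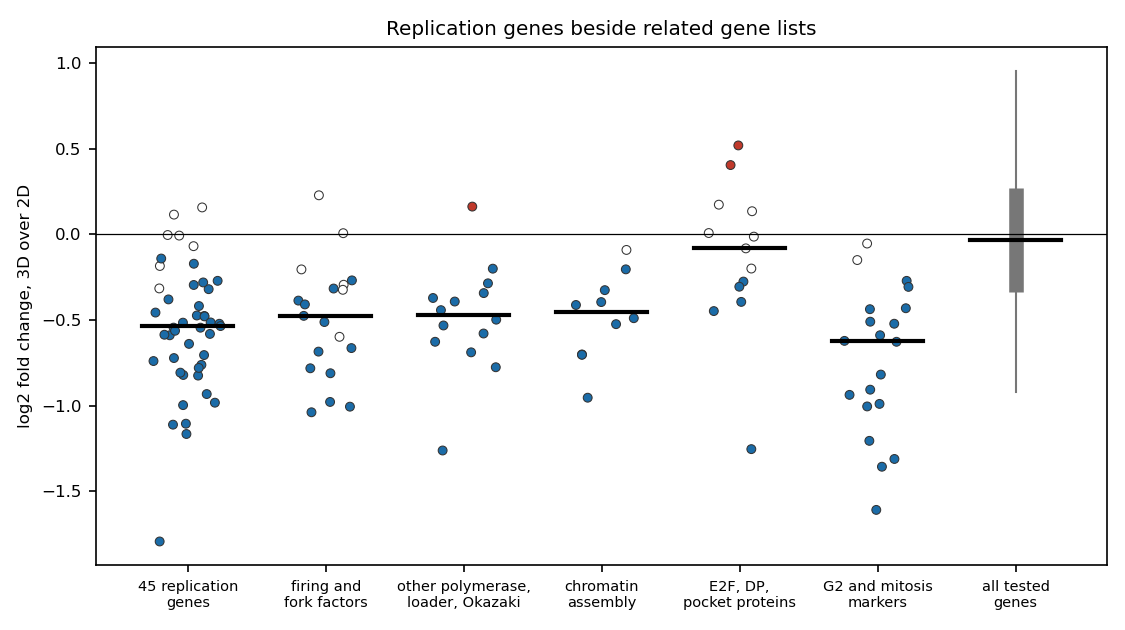
Log2 fold change of 3D over 2D (log2(TPM + 1) scale) for every tested gene of the 45 replication genes, the 4 other pathway lists and the G2 and mitosis markers, with black lines at the medians. Blue points are genes called lower, red points genes called higher and open points genes that did not pass. The grey bar for all tested genes spans the 25th to 75th percentiles and the thin line the 5th to 95th, with medians of -0.04 for all tested genes, -0.54 for the replication genes and -0.62 for G2 and mitosis.

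Markers of G2 and mitosis moved with the replication genes. Of 20 such markers, 18 were lower in 3D, 0 were higher and 2 did not pass, at either an adjusted or an unadjusted p under 0.05 (limma). Of the 14116 tested genes, 27.1% were lower and 23.4% higher at the adjusted threshold, and 4358 were lower and 3775 higher unadjusted. The 20 markers had a median log2 fold change of -0.62. Their summed level was 4756 and 4723 TPM in 2D and 2846 and 2875 TPM in 3D. Top2a is counted in this list and among the polymerase and Okazaki factors. The part of the cell cycle profile of each culture in the decrease of the replication genes was not tested.

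Genes that start close to a replication gene on the other strand did not all follow it. Of the 45 genes, 23 had another gene starting within 1000 bases on the opposite strand, and 21 of those neighbours were tested, of which 10 were lower, 2 higher and 9 not called (27.1% of all tested genes were lower and 23.4% higher). Named neighbours were picked with their values already known. Pxmp2, a peroxisomal membrane protein gene that starts 120 bases from Pole, was at 59.5 and 61.0 TPM in 2D and 12.8 and 12.7 TPM in 3D (log2 fold change -2.15, SE 0.06, adjusted p = 0.000202), with a 95% interval of -2.30 to -2.01 beside -1.99 to -1.59 for Pole. Vps35, a retromer subunit gene that starts 170 bases from Orc6, was at 218 and 218 TPM in 2D and 312 and 314 TPM in 3D (log2 fold change 0.52, SE 0.03, adjusted p = 0.00074), in the opposite direction to Orc6. Slc25a40, which starts 134 bases from Dbf4, was at 16.4 and 18.4 TPM in 2D and 10.5 and 11.6 TPM in 3D (log2 fold change -0.60, SE 0.10, adjusted p = 0.00727), while Dbf4 was not lower. Prpf38a beside Orc1 and Tmem258 beside Fen1 were lower (-0.71, adjusted p = 0.00439 and -0.57, adjusted p = 0.000807). Of the replication genes, 10 overlap another gene on the same strand, where the assignment of reads is uncertain, and no such overlapping gene exceeded 4.24 TPM.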

How the data were processed

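Polyadenylated RNA of AML12 cells was measured in 4 libraries made with the KAPA Stranded mRNA-seq kit, 2 from 2D and 2 from 3D culture. Per the labels and the study's methods, the authors trimmed reads (cutadapt 1.8.3, Trimmomatic 0.36), mapped the reads with HISAT2 2.0.5 (GRCm38, stranded) and quantified Ensembl release 93 genes with StringTie 1.3.4. The authors deposited TPM per gene for each library separately. The table also holds a fold change and a p-value from the authors' DESeq2 comparison, which were not used here. TPM are relative within a library and keep no depth, so no counting interval was computed, and a gene whose TPM falls can do so because others rise.

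Genes with a mean of at least 1 TPM entered a fit of log2(TPM + 1) on culture in R 4.3.3 (limma 3.58.1, moderated with a trend and robustly). Tests were two-sided, and Benjamini-Hochberg adjustment ran over all 14116 genes. Fold changes on this scale understate the change of low genes. With 2 libraries per culture, the smallest p of an exact permutation test is 0.333, so none was used. On simulated data with 200 changed genes of 14116, 81% of log2 changes of 1 and 39% of log2 changes of 0.5 were recovered. In the real data 27.1% of tested genes were called lower and 23.4% higher, a far larger share than was changed in the simulation. The recovery rates therefore cannot be taken as the power of the tests reported here. Levels of complexes were sums of TPM. Promoters came from RefSeq (GRCm38.p6), whose starts can differ from those in the table. The alternatives were other pseudocounts, filters, scalings and variance models, a replicate block and each library left out, and a correction for GC content and length was chosen after seeing the data. Figures were drawn with matplotlib 3.10.9 under Python 3.11.15.

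The 45 genes and the other lists were chosen with earlier results of these data known. All 45 may be named, with up to 4 genes of highest mean TPM from each other pathway list and every E2F, DP and pocket protein. Promoters were printed for genes with 1 promoter, by the lowest and highest log2 fold changes.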

Additional observations from a re-analysis of the deposited data

How the results depend on the processing

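Of the 14 alternatives, 10 used all libraries, and under these the number of replication genes lower in 3D lay between 33 (no filter on low values) and 38. Leaving out 1 library gave 29 to 35, with 29 without either 3D library, where the lone library is assumed to vary like the others. Under all 14 alternatives 27 genes stayed lower. The number higher was 1 (Dbf4) after median centring, quantile normalization, rescaling without mitochondrial and the 20 highest genes, and correction for GC content and length. The labels do not say whether same-numbered libraries were handled together, and their deviations had a correlation of -0.05 over 14116 genes. With a replicate block 36 replication genes were lower and 0 higher. The block ended the calls of Mcm2, Mcm6 and Chtf8 (limma adjusted p = 0.0978, 0.0805 and 0.0619). Over all genes the block gave 3347 lower and 2901 higher. The number of other pathway genes higher lay between 1 and 3 without 1 library, with 1 without 3D replicate 1.

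With a pseudocount of 5, which shrinks low genes by construction, medians were -0.47 for all 45, -0.50 for licensing, -0.50 for helicase activation and -0.45 for RPA. The licensing median was -0.53 after rescaling and -0.53 after the GC and length correction, which gave -0.32 for clamp and loader. Without 1 library the median ranged from -0.56 to -0.50 for all 45, from -0.59 to -0.52 for licensing and from -0.69 to -0.65 for helicase activation. Rescaling gave 76.5% of the 2D level for ORC, 59.9% for GINS, 105% for Cdc7-Dbf4 and 63.2% for polymerase alpha-primase. It gave 95.3% for Pold1 to Pold3, 74.0% for RFC and 72.8% for all 45. The causes of these shifts were not tested.

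Signs reversed only for genes near 0 that were called in none of these settings. Orc4 was at 0.012 after the GC and length correction. Pold3 was at 0.0058 after centring, 0.0032 after quantile normalization, 0.018 after rescaling and 0.0041 after the correction, and between -0.042 and 0.027 without 1 library. Rfc1 was at 0.0091, 0.0013, 0.022 and 0.016 under the same settings and between -0.043 and 0.035 without 1 library. E2f1 was at 0.012 after rescaling and between -0.079 and 0.052 without 1 library. E2f2 was at -0.077 after the correction and between -0.031 and 0.046 without 1 library. Mcm2 lost its call under 6 of the settings with all libraries (limma adjusted p 0.0522 to 0.102). Tests on read counts were not run, since the values are TPM.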
